A study of Rattus norvegicus with 4 samples.

Results

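Impdh1 and 9 further genes of purine nucleotide synthesis were followed through nuclei of rat perivascular and brown fat. The 10 genes, of 32883 in the files, are Impdh1, Impdh2, Gmps, Gmpr, Gmpr2, Ppat, Paics, Adsl, Atic and Hprt1, each found once by its symbol. Impdh1 was chosen because its counts differed between the tissues in adipocytes and in all nuclei of these libraries, so its values in that contrast are a description and carry no test. The other 9 were listed by their place in the route, to ask whether Impdh1 or the guanine nucleotide route as a whole differs between the adipocytes of the tissues.

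The samples were 2 libraries of thoracic aorta perivascular adipose tissue (taPVAT 1 and taPVAT 2) and 2 of subscapular brown adipose tissue (BAT 1 and BAT 2). All came from male rats of the strain SS/HsdMcwiCrl, the Dahl salt-sensitive rat, aged 16 weeks, with normal given as disease state and no treatment named. Both tissues shared the housing, feed and snap freezing, and the labels do not say whether a rat gave both tissues or whether tissue of several rats was pooled. About 50 mg of tissue per library went into droplet-based 3′ sequencing of nuclear RNA, so p-values measure only the spread between these libraries.

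Purine nucleotides are built on a ribose phosphate up to inosine monophosphate (IMP), from which the route branches to adenine and to guanine nucleotides. IMP dehydrogenase, encoded by Impdh1 and Impdh2, makes xanthosine monophosphate (XMP) from IMP, the rate-limiting step towards guanosine monophosphate (GMP). GMP reductase runs the other way and returns GMP to IMP, and its mRNA in the rat is known from the brown fat of cold-exposed animals. Brown fat burns fuel through uncoupling protein 1 (Ucp1), which purine nucleotides inhibit.

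The libraries held 14765 to 44637 barcodes and 63654436 to 158140959 unique molecular identifiers (UMIs). After doublet removal 38350 and 11520 nuclei remained in taPVAT 1 and 2, and 28151 and 22695 in BAT 1 and 2. Nuclei were named from marker genes, and the adipocyte class held 28627, 9178, 22114 and 17487 nuclei in the order taPVAT 1, taPVAT 2, BAT 1, BAT 2, which is used throughout. Pairs of libraries shared 126 to 424 cell barcodes. Most adipocyte clusters were filled mainly by a single library, and apart from cluster 8 the smaller remainder came mainly from the other tissue's library of the same number. Ucp1 was lower in both libraries numbered 2, at 941, 458, 1531 and 661 CPM in adipocytes. CPM is the count of a gene for every 1e+06 UMIs summed over a class in a library. Counts of 3′ tags are not scaled by gene length, so levels are compared between libraries and classes, not between genes. In sums over a class, fewer cells with a transcript and less RNA per cell cannot be told apart.

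The genes on which the results turn are Impdh1 and Gmpr, and the sequence before each of their annotated starts is shown because the counts of 3′ tags do not tell from which start a transcript came. RefSeq lists 2 starts for Impdh1 and 1 for Gmpr on the GRCr8 assembly, and each window holds the 250 bases before a start, 5′ to 3′ in the direction of transcription. Capitals mark the GC box GGGCGG on either strand. These coordinates belong to GRCr8, whereas the counts were made on Rnor_6.0.
Impdh1, chr4:58782773-58783022, minus strand: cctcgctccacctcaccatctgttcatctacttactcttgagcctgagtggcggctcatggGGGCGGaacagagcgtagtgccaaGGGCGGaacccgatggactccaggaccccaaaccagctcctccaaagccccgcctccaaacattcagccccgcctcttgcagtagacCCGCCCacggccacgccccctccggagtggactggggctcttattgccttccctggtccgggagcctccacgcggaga
Impdh1, chr4:58778796-58779045, minus strand: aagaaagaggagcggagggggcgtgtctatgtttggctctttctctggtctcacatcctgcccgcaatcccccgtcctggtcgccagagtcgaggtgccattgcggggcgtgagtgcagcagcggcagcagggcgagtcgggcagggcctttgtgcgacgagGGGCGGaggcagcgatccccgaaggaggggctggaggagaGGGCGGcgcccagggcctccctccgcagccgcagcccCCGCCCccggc
Gmpr, chr17:19395648-19395897, minus strand: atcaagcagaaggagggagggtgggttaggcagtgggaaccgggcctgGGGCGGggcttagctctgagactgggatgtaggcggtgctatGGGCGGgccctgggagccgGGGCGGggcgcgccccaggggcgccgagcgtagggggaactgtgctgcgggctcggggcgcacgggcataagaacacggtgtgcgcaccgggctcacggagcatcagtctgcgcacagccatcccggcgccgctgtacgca
Each of the 3 windows held 3 GC boxes, a motif present in 30.5% of 33469 such windows of the rat table. None of the 3 held the E-box CACGTG, the CRE TGACGTCA or the letters CCAAT, which were present in 5.59%, 1.59% and 34.0% of all windows. These matches describe letters only.

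Impdh1 (ENSRNOG00000020032) was higher in BAT adipocytes than in taPVAT adipocytes in every pairing of libraries. It had 4682 and 1525 UMIs in the adipocytes of taPVAT 1 and 2 and 16432 and 5276 UMIs in those of BAT 1 and 2, or 43.5, 30.2, 159.9 and 92.7 CPM. The tissues did not overlap, and the lower BAT library stood above the higher taPVAT library. Means were 36.9 ± 9.44 CPM in taPVAT and 126 ± 47.5 CPM in BAT (SD, n = 2 each), a level 3.43-fold higher in BAT. The fitted log2 fold change, taPVAT over BAT, was −1.74 ± 0.35 (SE). It moved between −1.39 without BAT 1 and −2.05 without BAT 2, so the size rests in part on BAT 1, the library with the highest Impdh1 and the highest Ucp1. Over all kept nuclei the levels were 43.2, 30.02, 153 and 89.4 CPM.

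Impdh2, the second IMP dehydrogenase gene, did not share that difference. Its levels in adipocytes were 8.47, 11.5, 7.85 and 13.6 CPM, and the tissues overlapped. Its log2 fold change was −0.08 ± 0.41 (SE), with a range of 2 SE from −0.89 to 0.73, and its direction turned when taPVAT 1 or BAT 2 was left out. For each Impdh1 UMI the adipocytes held 0.195, 0.380, 0.0491 and 0.147 Impdh2 UMIs, a ratio that was higher in both taPVAT libraries. Summed over both genes, IMP dehydrogenase transcripts stood at 52.0, 41.7, 168 and 106 CPM, so the sum followed Impdh1.

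Gmps, GMP synthetase, takes XMP to GMP in the step after IMP dehydrogenase. It was measured at 135, 189, 129.5 and 170.4 CPM, so both libraries numbered 2 stood above both libraries numbered 1 and the tissues overlapped. The log2 fold change was 0.14 ± 0.33 (SE), and it turned negative without taPVAT 2 or without BAT 1.

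**Figure D1:**
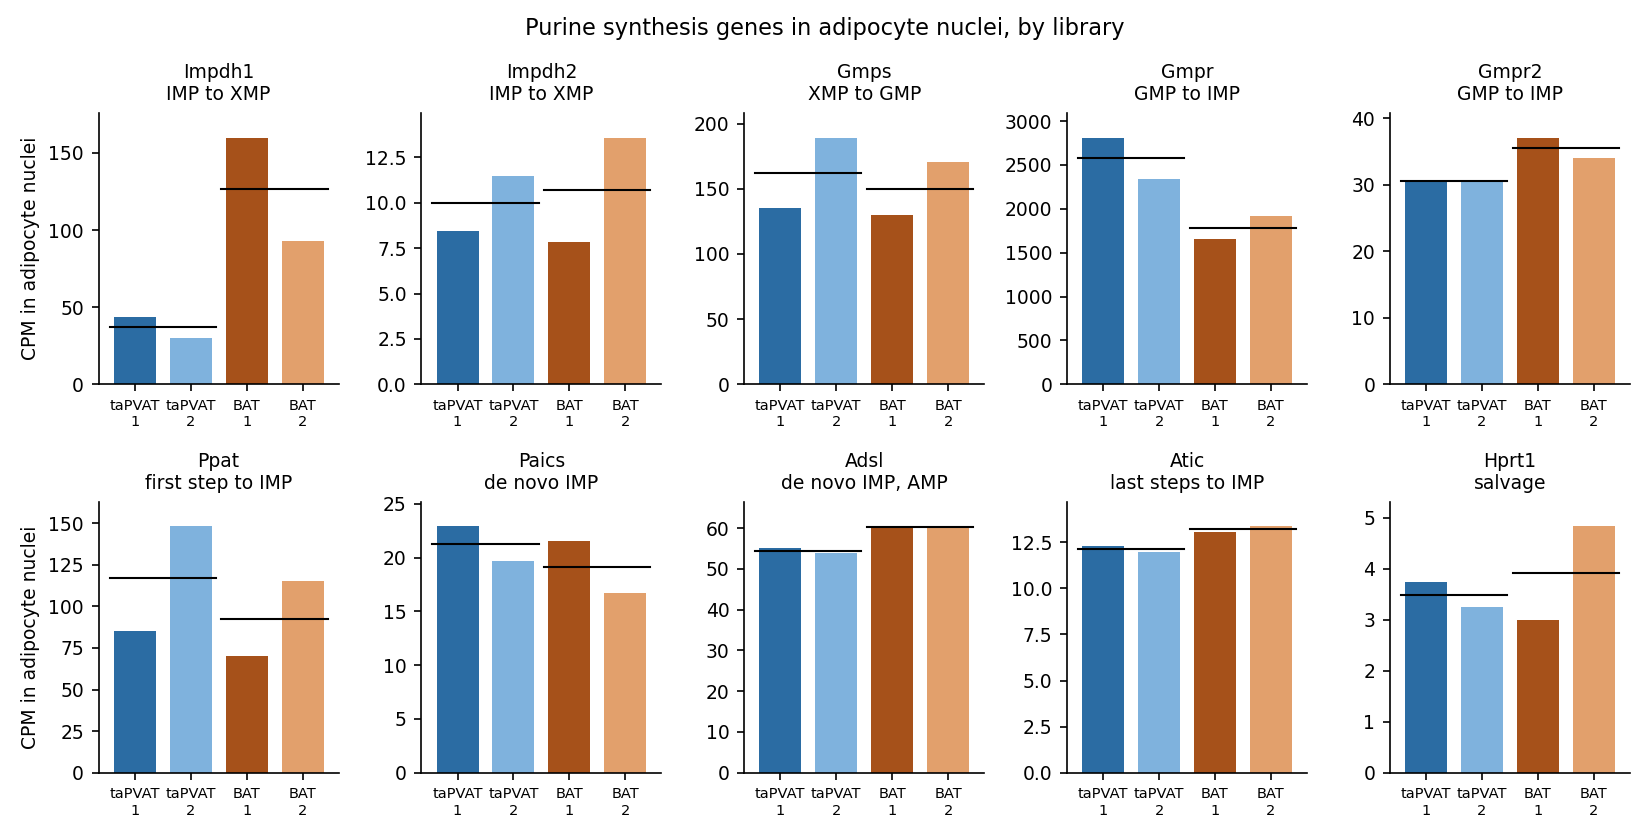
Levels of the 10 genes in adipocyte nuclei, in CPM on axes that start at 0 and differ between panels. Each bar is 1 library and each black line the mean of a tissue (n = 2). Impdh1 is higher in both BAT libraries, Gmpr is higher in both taPVAT libraries, and Ppat and Gmps differ more between replicate numbers than between tissues.

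Gmpr (ENSRNOG00000017250), the first GMP reductase gene, lay on the opposite side from Impdh1. It had 302378, 118089, 170194 and 109026 UMIs in adipocytes, or 2811, 2337, 1656 and 1916 CPM, with both taPVAT libraries above both BAT libraries. Means were 2574 ± 335 CPM in taPVAT and 1786 ± 184 CPM in BAT (SD, n = 2 each), 1.44-fold higher in taPVAT. The log2 fold change of 0.55 ± 0.29 (SE) did not pass the test, with an adjusted p of 0.999953 in edgeR, and the range of 2 SE ran from −0.02 to 1.12. The direction held without each library in turn, between 0.37 and 0.70.

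Gmpr2, the other GMP reductase gene, went the opposite way by a smaller margin. It was measured at 30.7, 30.5, 37.1 and 34.0 CPM, so both taPVAT libraries lay below both BAT libraries, and its log2 fold change was −0.18 ± 0.24 (SE). For each Gmpr UMI there were 0.0109, 0.0130, 0.0224 and 0.0177 Gmpr2 UMIs, so the sum of both genes, 2842, 2367, 1693 and 1950.3 CPM, followed Gmpr.

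Since Gmpr and Impdh1 lay on opposite sides, the ratio of their counts had to differ more between the tissues than either count alone. Adipocytes held 64.6 and 77.4 Gmpr UMIs for each Impdh1 UMI in taPVAT 1 and 2, against 10.4 and 20.7 in BAT 1 and 2. The tissues did not overlap, but this ratio contains the Impdh1 difference for which the gene was chosen and is a description. It is a ratio of tag counts, not of transcripts or enzymes.

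The steps that build IMP showed no common direction. Ppat, the amidophosphoribosyltransferase of the committed first step, stood at 85.4, 148, 70.3 and 115 CPM. As with Gmps, both libraries numbered 2 were higher, the tissues overlapped, and the log2 fold change was 0.36 ± 0.42 (SE), turning negative without taPVAT 2 or without BAT 1. Paics, which adds the carboxyl group and then aspartate, stood at 22.9, 19.7, 21.5 and 16.7 CPM, with overlapping tissues and a log2 fold change of 0.19 ± 0.27 (SE). Ppat and Paics start 25 bases apart on opposite strands in the RefSeq table, yet the adipocytes held 3.72, 7.53, 3.27 and 6.89 Ppat UMIs per Paics UMI, so their counts did not keep 1 ratio across libraries. Whether the counting used strand is not given in the sources used here.

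Adsl, adenylosuccinate lyase, serves IMP synthesis and the branch to AMP, and it was the steadiest of the 10 genes across libraries in adipocytes together with Atic. Adsl stood at 55.0, 54.0, 59.9 and 60.5 CPM and Atic, which carries out the last steps to IMP, at 12.3, 12.0, 13.1 and 13.4 CPM. For both genes the taPVAT libraries lay below the BAT libraries, by log2 fold changes of −0.11 ± 0.24 and −0.10 ± 0.27 (SE). Hprt1, which salvages hypoxanthine and guanine, had few UMIs, at 3.74, 3.25, 3.0 and 4.83 CPM, and the tissues overlapped.

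All 10 genes passed the low-count filter. In the adipocyte fit edgeR called 0 of 15572 genes at an adjusted p of 0.05, or 0%, with 357 genes at an unadjusted p under 0.05, while DESeq2 called 63, or 0.405%. Of the 9 genes other than Impdh1, edgeR and DESeq2 each called 0, 0 had an unadjusted p under 0.05, and edgeR's adjusted p was 0.999953 for each. Without BAT 1, BAT 2 or taPVAT 2 edgeR called 92, 116 and 3 genes in all, none of them among the 9. By position alone, 1 of these 9, Gmpr, was higher in both taPVAT libraries, and 3, Gmpr2, Adsl and Atic, were lower, against 10.1% and 10.3% of all genes tested and 20.4% in either direction. Their absolute log2 fold changes were at most 0.55. The 8 genes other than Impdh1 and Gmpr summed to 354, 468, 342 and 428 CPM, which differed between replicate numbers more than between tissues.

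The wider purine list held 81 genes of the purine route and, for comparison, of the pyrimidine route. It matched 79 symbols, of which 72 passed the filter. Apart from Impdh1, 6 of the 71 tested genes were higher in both taPVAT libraries, 13 were lower and 52 overlapped, against 10.1%, 10.3% and, in either direction, 20.4% of all genes tested. The median log2 fold change was −0.03, beside 0.00 over all genes tested. edgeR called 0 of the 71, with 1 at an unadjusted p under 0.05, and DESeq2 called 1. That gene was Ak4, a mitochondrial adenylate kinase isoform, at 8.74, 3.72, 1.12 and 1.11 CPM, with a log2 fold change of 2.5 ± 0.49 (SE). Ak4 was singled out after its values were seen. With Impdh1 the genes without overlap numbered 20. They numbered 39, 36, 55 and 54 of 72 without taPVAT 1, taPVAT 2, BAT 1 and BAT 2, where fewer libraries have to be in order and 58.3%, 53.6%, 64.4% and 64.5% of all genes tested did not overlap.

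Outside the 10 genes, 8 genes of the list had at least 10 CPM and no overlap, with log2 fold changes of at most 0.35 in size. Gart, another enzyme of IMP synthesis, was lower in taPVAT with a log2 fold change of −0.23 ± 0.26 (SE). The salvage enzymes Adk, adenosine kinase, and Pnp, purine nucleoside phosphorylase, were at −0.33 ± 0.25 and −0.35 ± 0.28 (SE). Nt5e, the surface nucleotidase that makes adenosine, and Rrm1, a ribonucleotide reductase subunit, were higher in taPVAT at 0.28 ± 0.28 and 0.34 ± 0.26 (SE). Nme1, a nucleoside diphosphate kinase, Rrm2b, another ribonucleotide reductase subunit, and Cad, which starts pyrimidine synthesis, were at −0.10, −0.01 and −0.03. None of these 8 passed the test, with an adjusted p of 0.999953 for each in edgeR.

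The breakdown enzymes of the list had no common order. Of the 12 tested, 3 were higher in both libraries numbered 2 and 5 were lower in both, orders that 27.3% and 35.2% of all genes tested had. The 3 were Xdh, Gda and Entpd1, named after their values were seen. Xdh, xanthine dehydrogenase, stood at 254, 732, 204 and 875 CPM and Gda, guanine deaminase, at 19.5, 55.9, 15.5 and 153 CPM. Entpd1, a surface enzyme that cleaves ATP and ADP, stood at 27.4, 249, 19.4 and 363 CPM. What the number stands for is not given in the labels.

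**Figure D2:**
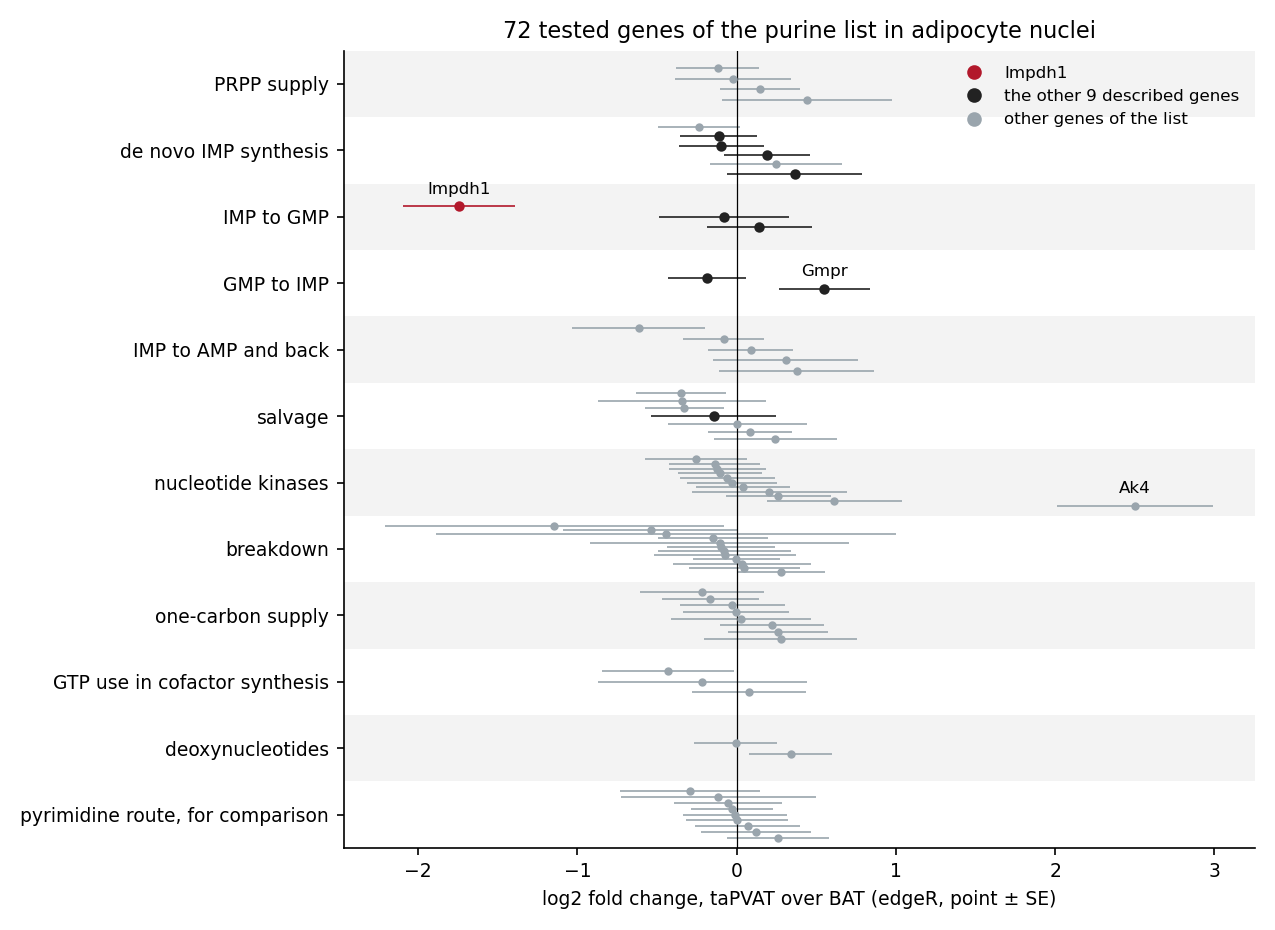
Fitted log2 fold change, taPVAT over BAT, of the 72 tested genes of the purine list in adipocyte nuclei, grouped by step, with the SE as bar. Impdh1 at −1.74 lies apart from the other genes of its steps, Gmpr at 0.55 lies on the other side, and only Ak4 at 2.5 is farther from 0 than Impdh1.

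Counted by nucleus, Impdh1 was found in a larger share of adipocytes in both BAT libraries. An Impdh1 UMI was found in 13.96%, 13.4%, 43.9% and 24.1% of adipocyte nuclei, whose median depths were 3157, 4954, 3882 and 2777 UMIs. The Wilson 95% intervals were 13.6% to 14.4%, 12.7% to 14.1%, 43.3% to 44.6% and 23.5% to 24.8%, which cover counting error only and were taken at unequal depth. After thinning each nucleus to 2000 UMIs, which left out shallower nuclei and kept 22496, 8824, 20059 and 13486, the shares were 8.25%, 5.97%, 26.1% and 16.3%. Nuclei with an Impdh1 UMI then held 1.08, 1.09, 1.24 and 1.13 of them on average. At levels this low the share of nuclei with a UMI and the UMIs in each such nucleus both depend on the mean, so more nuclei with the transcript and more transcript per nucleus cannot be told apart. Gmpr was found in 94.3%, 88.6%, 79.7% and 87.8% of thinned nuclei, with 5.96, 5.17, 4.07 and 4.404 UMIs each in those that had any.

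At 1000 UMIs a nucleus, which allows a comparison with the shallower classes, Impdh1 was found in 4.66%, 3.19%, 14.2% and 8.98% of adipocytes. In vascular endothelial nuclei, with median depths of 1321, 1736, 1512 and 1449 UMIs before thinning, the shares were 3.68%, 4.44%, 6.73% and 8.15%. The adipocyte share was above the endothelial share in taPVAT 1, BAT 1 and BAT 2, by the widest margin in BAT 1, and below it in taPVAT 2. No class known to lack Impdh1 was at hand to set the level that free RNA gives.

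Adipocytes were then split by Ucp1, since BAT 1 was high in both genes. After thinning to 2000 UMIs, adipocytes with 0 Ucp1 UMIs held Impdh1 at 35.7, 28.3, 121 and 88.7 CPM, and those with 2 or more at 49.2, 43.3, 171 and 95.4 CPM. In each group the BAT libraries had more Impdh1, and within each library Impdh1 was higher in the nuclei with more Ucp1 UMIs. The rise was smallest in BAT 2, on 885 Impdh1 UMIs with 0 Ucp1 UMIs and 845 with 2 or more. It was not set against counting error. Gmpr was also higher with more Ucp1 UMIs in every library, at 2594, 2135, 1026 and 1768 CPM with 0 and at 2937, 2654, 1773 and 2134 CPM with 2 or more. Gmps at 0 Ucp1 UMIs, 135, 184, 127 and 169 CPM, and at 2 or more, 135, 178, 128 and 166 CPM, stayed close. A Ucp1 UMI was also found in 55.3%, 37.3%, 61.7% and 36.3% of vascular endothelial nuclei at this depth, beside 78.5%, 53.0%, 87.8% and 63.0% of adipocytes. Ucp1 UMIs from free RNA and nuclei in which Ucp1 was missed cannot be told apart from a nucleus's own level in these groups. The part of Ucp1 in the Impdh1 difference was not tested.

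**Figure D3:**
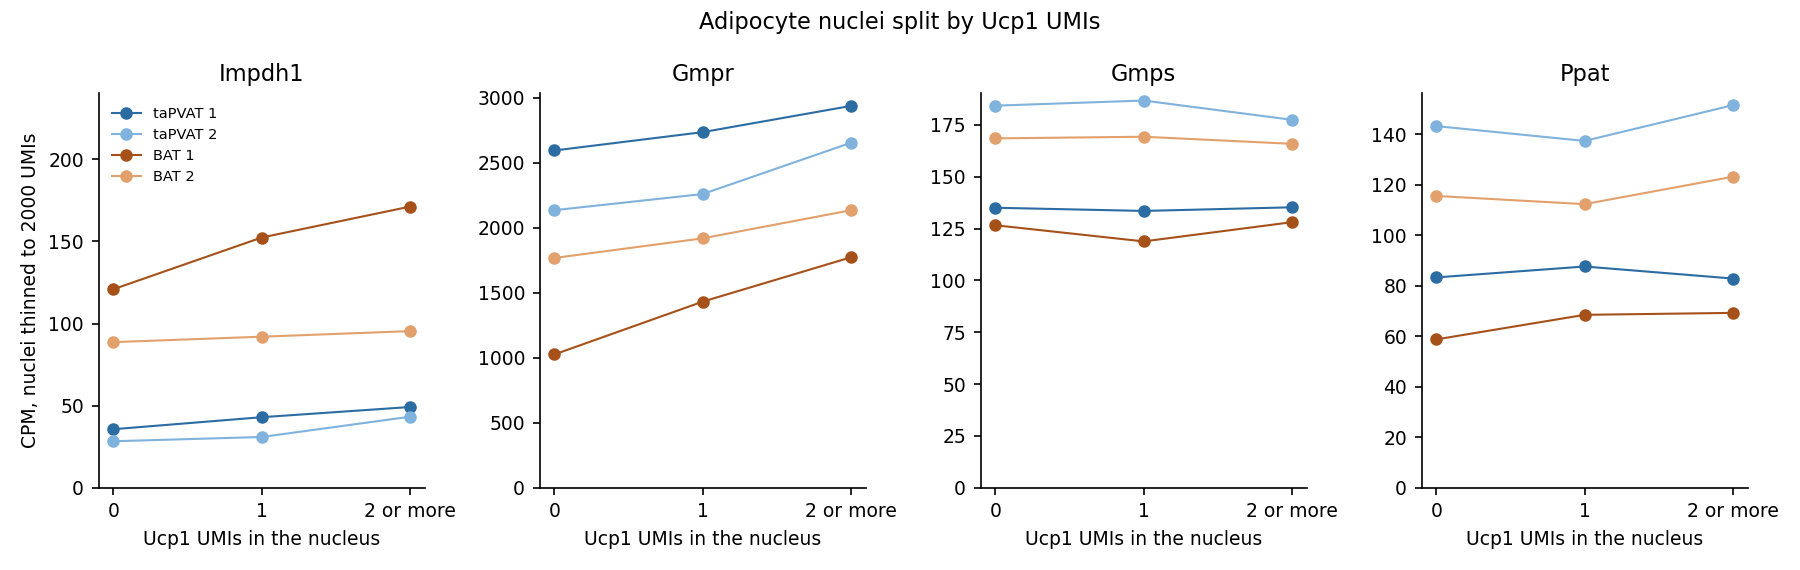
Level of Impdh1, Gmpr, Gmps and Ppat in adipocyte nuclei thinned to 2000 UMIs and split by their Ucp1 UMIs, in CPM, with 1 line per library. The BAT lines for Impdh1 lie above the taPVAT lines in every Ucp1 group. The Impdh1 and Gmpr lines rise in each library, that of Impdh1 least in BAT 2. The Gmps and Ppat lines are ordered by replicate number.

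Clusters of adipocytes that the tissues share gave the same order. There were 12 pairs of same-numbered libraries, in 11 clusters, with at least 200 nuclei from each tissue, and Impdh1 was higher in BAT in all 12, by 1.47-fold to 3.63-fold with a median of 2.10-fold. The taPVAT 1 nuclei that shared clusters 2, 3 and 7 with the bulk of BAT 1 had 90.5, 77.4 and 85.6 CPM of Impdh1, whereas the largest taPVAT 1 cluster, cluster 1, had 34.2 CPM. Those taPVAT 1 nuclei still stood below their BAT 1 neighbours, at 175, 166 and 175 CPM. Gmpr was higher in taPVAT in 11 of the 12 pairs, as was Ppat, and Gmps in 10 of the 12. The median fold, BAT over taPVAT, was 0.80 for Gmpr but 0.91 for Ppat and 0.95 for Gmps. The share of all genes with such counts was not computed. Clusters were drawn from 3000 variable genes of the same nuclei, and pairs within a library are not replicates, so these counts carry no test. The pairs also divide the adipocyte counts for which Impdh1 was chosen, so its order in them is a description only.

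Cluster 8, led by Kcnip1, Clmp and Kcnn3, was the adipocyte cluster with at least 200 nuclei from every library, with 1515, 631, 1969 and 1264 nuclei. Gmpr was low there, at 381, 94.8, 179 and 155 CPM, and so was Ucp1, at 353, 200.5, 341 and 209 CPM. Impdh1 stood at 32.4, 30.6, 48.8 and 51.7 CPM, with both BAT libraries higher but closer to taPVAT than in adipocytes as a whole. In each library these levels of Gmpr, Ucp1 and Impdh1 lay below those in vascular endothelial nuclei. The part of free RNA in them was not tested. Ppat was also low in cluster 8, at 32.7, 31.6, 31.6 and 31.2 CPM, and no longer followed the replicate number. The other adipocyte clusters led by Kcnip1 and Clmp, 14 and 24, were low in Gmpr and Ucp1 to a lesser degree. Gmpr stood at 1980.0 and 1294 CPM in the taPVAT 1 and BAT 1 nuclei of cluster 14. It stood at 1399 CPM in the BAT 2 nuclei of cluster 24. In all adipocytes of these libraries Gmpr stood at 2811, 1656 and 1916 CPM. Ucp1 stood at 717, 1152 and 459 CPM in the same nuclei, against 941, 1531 and 661 CPM in all adipocytes. Clusters 14 and 24 were deeper, with medians of 5102 and 5811 UMIs against 2278 in cluster 8. Gmpr below the level of all adipocytes was not particular to clusters led by Kcnip1 and Clmp. Cluster 15, led by Hba-a1, had Gmpr at 1715 and 1210 CPM in taPVAT 1 and BAT 1, below cluster 14. Cluster 2 had Gmpr at 1792 CPM in taPVAT 1, where its Ucp1 was 1244 CPM.

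**Figure D4:**
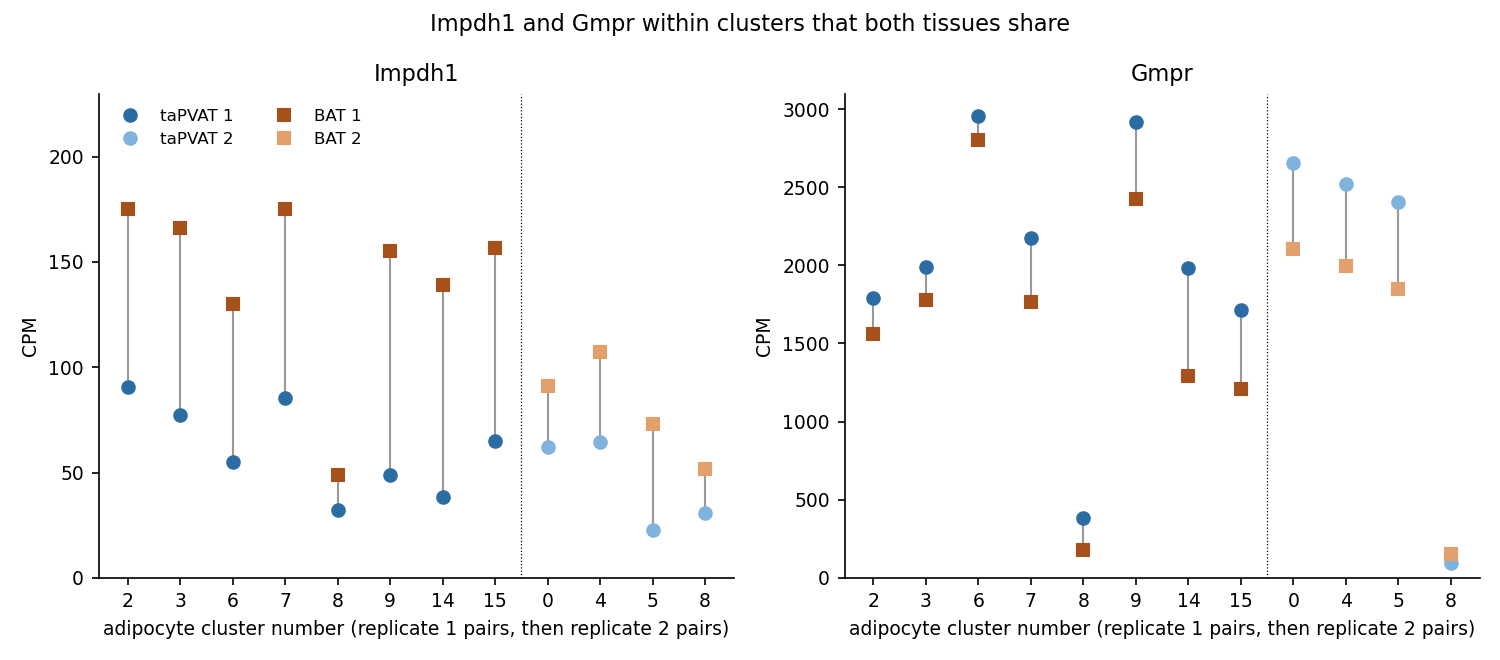
Levels of Impdh1 and Gmpr, in CPM from 0, in the adipocyte clusters with at least 200 nuclei from both tissues of a replicate number, with circles for taPVAT, squares for BAT and a line joining each pair. Squares lie above circles in all 12 pairs for Impdh1, and circles above squares in 11 of 12 for Gmpr, which is low in cluster 8. Impdh1 was chosen for its difference in these adipocytes.

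In the 5 other classes with at least 50 nuclei in every library Impdh1 was again higher in BAT, on few UMIs. It stood at 44.4, 39.8, 72.7 and 83.6 CPM in vascular endothelial nuclei, at 34.8, 20.8, 58.1 and 55.3 CPM in fibroblasts and at 33.7, 30.9, 73.7 and 54.4 CPM in mural cells. Myeloid nuclei had 21.1, 29.1, 61.1 and 52.6 CPM and lymphocytes 35.0, 46.0, 74.0 and 90.3 CPM. The taPVAT libraries lay below the BAT libraries in each of the 5 classes, where 8.54% of vascular endothelial genes, 10.7% of fibroblast genes, 12.4% of mural, 12.4% of myeloid and 11.9% of lymphocyte genes with at least 10 UMIs did so. These sums rest on 8 to 198 Impdh1 UMIs per library and class. In edgeR the adjusted p of Impdh1 was 0.999968 in vascular endothelial nuclei and 0.603 in fibroblasts. With a block for the replicate number it was 0.126 and 0.0215. Impdh1 was chosen in part on all nuclei, which include these classes. These p-values, the 0.0215 included, are therefore a description and no independent test. In Schwann cells, with 38 nuclei in taPVAT 2, the tissues overlapped, at 45.6, 71.4, 59.9 and 45.4 CPM on 14, 6, 15 and 8 UMIs.

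The order of classes by Impdh1 differed between the tissues. In BAT the adipocytes had the highest mean, 126 ± 47.5 CPM, above lymphocytes and vascular endothelial nuclei at 82.2 ± 11.5 and 78.2 ± 7.72 CPM (SD, n = 2), and the lower adipocyte library was only just above the higher lymphocyte library. In taPVAT the adipocytes had a mean of 36.9 ± 9.44 CPM, below vascular endothelial nuclei at 42.1 ± 3.22 CPM and lymphocytes at 40.5 ± 7.77 CPM (SD, n = 2), and the libraries of the 3 classes overlapped. Classes come from clusters of the same nuclei, so this order carries no test.

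Adipocyte marker RNA was also found outside adipocytes, in amounts that differed between libraries. Taken over the 12 adipocyte markers, the median level was 35.5% to 51.6% of that in adipocytes across the other 5 classes of taPVAT 1, 20.3% to 29.5% in taPVAT 2, 27.1% to 50.3% in BAT 1 and 39.2% to 47.4% in BAT 2. Impdh1 lay at 48.5% to 102%, 69.0% to 153%, 36.3% to 46.3% and 56.7% to 97.4% of its adipocyte level. Gmpr lay at 16.9% to 28.0%, 6.02% to 9.11%, 14.7% to 28.2% and 11.4% to 15.9%, so in each library its share was below that of Impdh1 in all 5 classes. The Impdh1 shares in taPVAT 2 were divided by the lowest adipocyte level of any library, 30.2 CPM, and the 153% rested on 8 UMIs in lymphocytes. Single markers varied widely around the median, from 0% to 149% in the fibroblasts of BAT 1. The part of free adipocyte RNA in the Impdh1 difference outside adipocytes was not tested.

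Gmpr outside adipocytes followed the library rather than the tissue. In vascular endothelial nuclei it stood at 591, 143, 292 and 223 CPM and in fibroblasts at 476, 152, 243 and 218 CPM. In all 5 classes taPVAT 1 was the highest and taPVAT 2 the lowest. The part of free adipocyte RNA in this order was not tested. edgeR called 0 of 10303 genes between the tissues in vascular endothelial nuclei, or 0%, with 117 at an unadjusted p under 0.05 and 5 called by DESeq2. In fibroblasts it called 17 of 9510, or 0.179%, and over all nuclei 0 of 16625, or 0%, with 473 at an unadjusted p under 0.05 and 101 called by DESeq2. edgeR called none of the 10 genes in these fits, whereas DESeq2 called Impdh1 over all nuclei, a contrast for which it was chosen. These counts depended on single libraries: over all nuclei 64 and 102 were called without BAT 1 and BAT 2. In fibroblasts 34, 100 and 102 were called without taPVAT 2, BAT 1 and BAT 2. In vascular endothelial nuclei 15, 37 and 1 were called without taPVAT 1, taPVAT 2 and BAT 2.

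**Figure D5:**
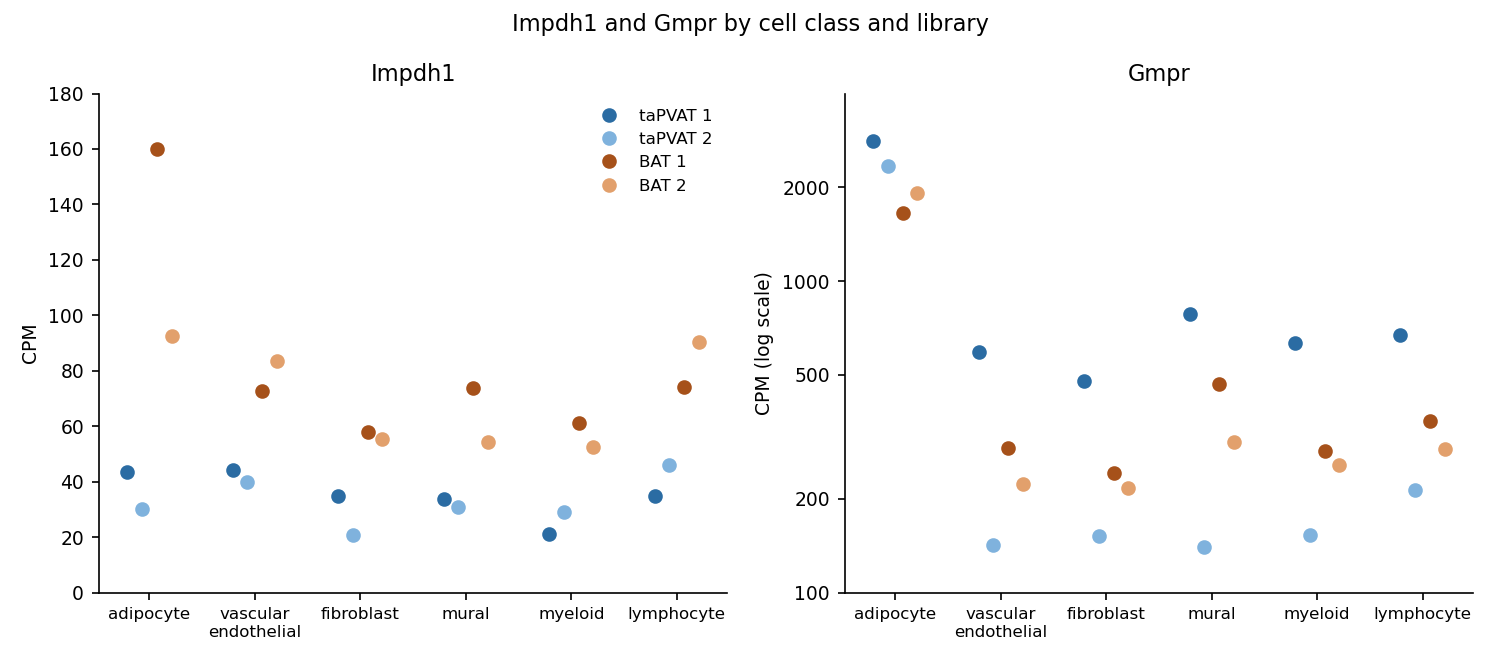
Impdh1 (linear axis from 0) and Gmpr (log axis) in CPM in 6 cell classes, with 1 point per library. Both BAT points lie above both taPVAT points for Impdh1 in each class, while Gmpr outside adipocytes is highest in taPVAT 1 and lowest in taPVAT 2.

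The genes whose levels ran most like Impdh1 were not those of the purine route. Over 24 sums of 6 classes and 4 libraries, and among 10131 genes, the highest Pearson r with Impdh1 on log2(CPM + 1) belonged to Zdbf2, a zinc finger gene, at 0.77, and Coq8a, of coenzyme Q synthesis, at 0.75. They were followed by the lipid droplet gene Plin5 at 0.67, the lipoprotein lipase inhibitor gene Angptl4 at 0.66 and the glutamine transporter gene Slc1a5 at 0.65. Among the members that reached 20 CPM in at least 1 sum, which Hprt1 did not, Adsl had the highest r with Impdh1, 0.40. It ranked 201 of the 10131 genes. Gmps was at 0.23, rank 1203, and Gmpr at 0.18, rank 1731. Impdh2 had the lowest r of these members, −0.11, at rank 6374. Ucp1 had 0.49. The sums share libraries, depth and free RNA, so these values describe a likeness only. Few UMIs in the smaller classes, as for Impdh2 with 4 to 18 per library in lymphocytes, can also lower an r.

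In adipocytes Zdbf2 stood at 0.40, 1.66, 13.3 and 33.2 CPM and Slc1a5 at 156, 183, 269 and 241 CPM, both higher in both BAT libraries, an order that 10.3% of all genes tested had. These genes were chosen for their likeness to Impdh1 over sums that include the same adipocytes, so that order is a description only. Angptl4, at 161, 133, 229 and 169 CPM, was also higher in both BAT libraries. Coq8a, at 303, 123, 619 and 214 CPM, and Plin5, at 87.9, 64.6, 153 and 63.9 CPM, overlapped between the tissues.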

How the data were processed

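Nuclear RNA of 2 taPVAT and 2 BAT libraries was counted by the authors with Cell Ranger 7.1.0, per the file headers, on Rnor_6.0, per the submitters' processing notes. The deposited matrices hold raw counts of UMIs per gene and barcode, and no barcode has fewer than 500 UMIs. Which annotation release was used, and whether intronic reads were counted, is not given in the sources used here. Values of overlapping genes and of close copies are uncertain for that reason.

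Nuclei needed 500 or more detected genes. Doublets were scored per library with Scrublet in scanpy 1.11.5, which called 10.8%, 6.61%, 0% and 15.3%. The caller was judged to have failed in BAT 1, where the 6402 highest scores, 18.5%, were removed, a share set from the ratio of called to expected doublets elsewhere. Doublets took part in clustering and were removed afterwards. Clustering used 3000 variable genes, 30 principal components, 15 neighbours and leidenalg 0.10.2 at resolution 2.5, without integration of libraries, and gave 39 clusters. Clusters were named from 15 marker lists, as X-like classes with the suffix dropped. A non-adipocyte name needed a relative marker level of 0.3 and an adipocyte name 0.5, and T, NK and B lists were joined as lymphocytes. The resolution and these levels were set on the data, after a coarser clustering had joined immune classes. No mitochondrial limit was applied.

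Counts were summed per library and class and taPVAT was compared with BAT by edgeR 4.0.16 (R 4.3.3), using its quasi-likelihood test, TMM scaling, filterByExpr and Benjamini-Hochberg adjustment over all genes of a fit. An adjusted p under 0.05 is a call. Scripts were tested on simulated data with less spread between libraries than the adipocyte sums had. The share of changed genes called at the spread of these data was not tested. DESeq2 1.42.0, other filters and leaving out each library were alternatives. An SE belongs to the fitted log2 fold change. Wilson intervals of shares cover counting error only.

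The members and lists were chosen with earlier results of these data known. Named genes are the 10 members. Of the purine list they are the called genes and otherwise up to 8 genes with the largest fold change among those with at least 10 CPM and no overlap between tissues. The 5 genes with the highest r to Impdh1, over classes with at least 50 nuclei in each library and genes reaching 20 CPM in a sum, were named too.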

Additional observations from a re-analysis of the deposited data

How the results depend on the processing

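The direction of Impdh1 in adipocytes was the same under all 13 alternatives run, and the direction and the side of the threshold were the same for Gmpr, Gmpr2, Paics, Adsl and Atic. Without each library in turn the Impdh1 log2 fold change ran from −2.05 to −1.39, and under the 9 other alternatives from −1.91, with at most 5% mitochondrial UMIs, to −1.72. Impdh2 turned to 0.11 and 0.42 without taPVAT 1 and without BAT 2, within a range of −0.50 to 0.42. Gmps turned to −0.17 and −0.12, and Ppat to −0.14 and −0.02, without taPVAT 2 and without BAT 1, within ranges up to 0.40 and 0.81. Hprt1, with a range of −0.52 to 0.29, turned to 0.29 without BAT 2 and to 0.21 with a marker gate per nucleus. For these genes the cause was not tested.

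The number of genes called depended on the tool and filter. DESeq2 called 63 genes in adipocytes, 101 over all nuclei, 5 in vascular endothelial nuclei and 51 in fibroblasts, against 0, 0, 0 and 17 with edgeR. Without a low-count filter edgeR called 26, 60, 29 and 187. In fibroblasts 29 were called with library size alone and 8 with the marker gate. Leaving out 1 library, where the lone sample left is assumed to vary like the other tissue, gave 0 to 116 in adipocytes, 0 to 102 over all nuclei, 0 to 37 in vascular endothelial nuclei and 14 to 102 in fibroblasts. Genes of the purine list without overlap numbered 36 to 55 without each library in turn, against 20 with all, since fewer libraries then have to be in order. For the counts of called genes the cause was not tested. The limit of 5% mitochondrial UMIs could not be run in vascular endothelial nuclei or fibroblasts, where fewer than 20 nuclei were left in a library, and the marker gate has no form for all nuclei.

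The labels do not say that a replicate number marks a shared animal or day, and with 2 pairs the numbers were not taken to pair the samples. Deviations of same-numbered libraries from their tissue means correlated at 0.67 in adipocytes and over all nuclei, 0.53 in vascular endothelial nuclei and 0.43 in fibroblasts. A replicate block in the edgeR fit gave 360 called genes in adipocytes, 386 over all nuclei, 24 in vascular endothelial nuclei and 309 in fibroblasts. Impdh1 was called with the block in adipocytes, over all nuclei and in fibroblasts, and by DESeq2 in adipocytes and over all nuclei. It was chosen for its difference in these data, so these calls are no test of it. The 9 members other than Impdh1 were not called with the block in adipocytes, where the smallest adjusted p in edgeR was 0.191, for Gmpr.

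In the adipocyte fit as reported the range of 2 SE included 0 for each of these 9 genes. For Gmpr it did not include 0 over all nuclei, at 0.55 ± 0.25 (SE), nor in adipocytes with at least 1000 genes per nucleus, at 0.55 ± 0.27, or with the replicate block, at 0.55 ± 0.18. For Ppat it did not with the block, at 0.35 ± 0.16. A range of 2 SE is not a test, and none of these fits called either gene. Over all nuclei edgeR gave Gmpr an unadjusted p of 0.078 and an adjusted p of 0.999963. With the block in adipocytes the adjusted p in edgeR was 0.191 for Gmpr and 0.470 for Ppat. Counts below about 10 UMIs per library, as for Impdh1 in the lymphocytes of taPVAT 2, limit the values outside adipocytes.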
